A study of Mus musculus with 3 samples.

Results

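Mouse macrophages carry 4 receptors for the Fc part of IgG antibodies, encoded by *Fcgr1*, *Fcgr2b*, *Fcgr3* and *Fcgr4*, and a gamma chain encoded by *Fcer1g*. These 5 genes were taken by name from the 32285 genes of the deposited matrices, and all 5 were found there. Their transcripts were counted cell by cell, with barcoded droplets, in bone marrow derived macrophages (BMDMs) from female C3H/HeN mice aged 6 to 8 weeks, with the cells of several mice in each library. Cells of the LP1 and LP4 groups received 1 µg/mL of purified lipoproteins of *Borrelia burgdorferi* (*Bb*LP), the spirochete of Lyme disease, for 1 h or 4 h, and cells of the Ctrl group received PBS. Per the methods, control cells were collected with the 4 h cells, so LP1 and Ctrl also differ in their time in the wells. The cells of several wells were pooled into 1 library per group, so no spread between cultures was measured, no test between groups was possible, and every interval given here is a 95% interval for counting error only.

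The receptors for IgG bind immune complexes and antibody-coated particles. *Fcgr1* encodes the high-affinity receptor (CD64), *Fcgr3* a low-affinity receptor (CD16), and *Fcgr4* a receptor with a preference for certain IgG subclasses (CD16-2). All 3 are activating receptors, which need the gamma chain for their surface expression and for signaling, because the chain holds the ITAM motif that Src family kinases phosphorylate and Syk then binds. *Fcgr2b* encodes the only inhibitory member (CD32b), which has an ITIM motif of its own that recruits phosphatases such as the one encoded by *Inpp5d* (SHIP1). The ratio of activating to inhibitory receptors is known to set how strongly a macrophage responds to immune complexes.

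After the cell limits of the study, 6071 Ctrl, 5065 LP1 and 4670 LP4 cells were kept, with 35688939, 52475723 and 61402275 UMIs (unique molecular identifiers, each counting 1 captured transcript). The median cell held 5133 UMIs in Ctrl and, after 1 h and 4 h, 9343 and 11784. Between 3 and 9 barcode sequences of kept cells occurred in each pair of libraries. The label of the cells held against their markers: all 8 macrophage markers checked, among them *Adgre1*, *Csf1r* and *Cd68*, reached 10 UMIs per 1000000 (CPM) in every library, and their summed level lay between 11642 and 12184 CPM. Other cells known for these receptors were near absent, with the 4 B cell markers summing to between 1.45 and 2.89 CPM and the 6 mast cell or basophil markers to between 0.305 and 0.364 CPM. The 9 neutrophil markers summed to 398 CPM in Ctrl, 298 after 1 h and 591 after 4 h. Between Ctrl and LP4, *S100a9* went from 139 to 264 CPM and *Csf3r* from 35.2 to 78.8, and *S100a8*, *Ngp* and *Camp* rose by fewer CPM. *Ltf*, *Retnlg* (30 to 2 UMIs), *Ly6g* (6 to 3 UMIs) and *Cxcr2* had lower CPM. Cells of cluster H, led by neutrophil granule genes and described below, were 0.53% of those kept in Ctrl and 0.60% in LP4. Whether the sums follow the number of neutrophils was not tested. CPM is a share of the UMIs of a library, so a change in the RNA content of the cells is not seen in it. The libraries read the 3′ end of each transcript, so levels were not divided by gene length.

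*Fcgr2b* (chr1:170958617-170976547, minus strand), *Fcgr4* (chr1:171018920-171029761, plus strand) and *Fcgr3* (chr1:171051174-171064935, minus strand) stand side by side within 106 kb on chromosome 1, in GENCODE vM21 on GRCm38 (mm10), with no other protein-coding gene between them. *Fcer1g* (chr1:171229572-171234365, minus strand) lies 165 kb beyond *Fcgr3*, with 7 protein-coding genes between, and *Fcgr1* (chr3:96282909-96293969, minus strand) is on chromosome 3. *Fcgr3* and *Fcgr2b* are close relatives, and 12.8% of the 50-base stretches of the *Fcgr3*-201 transcript also occurred in a transcript of *Fcgr2b*. In the last 500 bases, where 3′ libraries mainly read, no 50-base stretch of any of the 5 genes' longest coding transcripts occurred in a transcript of another gene. Introns were not compared. The intervals of *Fcgr2b*, *Fcgr3* and *Fcgr4* each overlap 1 annotated non-coding gene (*Gm38204*, *Mir6546* and *Gm26110*), of which *Gm38204* is antisense to *Fcgr2b*. What such overlaps add to the counts was not tested.

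Sequences upstream of the RefSeq start sites of *Fcgr1*, *Fcgr4* and *Fcgr2b* are shown, because *Fcgr1* and *Fcgr2b* had the largest ratios after 4 h. *Fcgr1* and *Fcgr4* also differed most between cells with low and high interferon gene expression, as described below. The sequences are RefSeq reference (GRCm38.p6) and not read from the C3H/HeN cells. Bases that any annotated exon of the gene covers were left out. The *Fcgr4* stretch therefore ends 6 bases before its RefSeq start, and that of *Fcgr2b* is short and ends 56 bases before. The *Fcgr2b* stretch lies inside the GENCODE gene, between annotated exons, and not before the gene's 5′ end at 170976547. Capitals mark matches to 5 motifs searched on both strands: TTCNNNGAA (the gamma-activated site, bound by STAT factors), a core of the interferon-stimulated response element, GAGGAA (a core of sites of PU.1), TTGCNNAA (a core of C/EBP sites) and the NF-kB consensus.
Fcgr1 (chr3:96293970-96294219, minus strand): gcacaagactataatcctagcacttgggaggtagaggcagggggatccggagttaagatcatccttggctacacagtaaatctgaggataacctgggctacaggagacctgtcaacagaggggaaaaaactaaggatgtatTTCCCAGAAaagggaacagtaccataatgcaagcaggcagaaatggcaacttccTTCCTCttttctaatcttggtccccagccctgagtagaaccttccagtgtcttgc
Fcgr4 (chr1:171018676-171018919, plus strand): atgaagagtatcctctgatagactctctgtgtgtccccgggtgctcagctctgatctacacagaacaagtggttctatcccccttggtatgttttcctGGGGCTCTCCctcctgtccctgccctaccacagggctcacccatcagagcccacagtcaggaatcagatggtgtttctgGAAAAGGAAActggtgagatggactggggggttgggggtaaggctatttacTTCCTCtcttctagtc
Fcgr2b (chr1:170976128-170976190, minus strand): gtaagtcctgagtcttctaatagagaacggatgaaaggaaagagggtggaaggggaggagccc

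In windows of 300 bases (250 before the RefSeq start and 50 from it on), which were found for all 5 genes, *Fcgr1* held TTCCCAGAA from -109 to -101 and the PU.1 core from -55 to -50 of the start. *Fcgr4* held GAAAAGGAAA, a match to the interferon-stimulated core, from -73 to -64, an NF-kB match from -152 to -143 and the PU.1 core from -22 to -17. *Fcgr3* has 2 RefSeq starts, and both windows held the PU.1 core, a C/EBP core and an NF-kB match. The windows of *Fcgr2b* and *Fcer1g* held a match to none of the 5 motifs. For *Fcgr3* and *Fcgr2b* the RefSeq starts lie inside the GENCODE gene, and the sequence before its 5′ end was not searched. Of 32544 such windows over all genes, 8.33% held the gamma-activated site, 3.45% the interferon-stimulated core, 28.1% the PU.1 core, 10.8% the C/EBP core and 8.49% the NF-kB consensus. A match describes the letters of the window and not the binding of a factor.

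In untreated cells, the gamma chain was by far the most abundant of the 5 RNAs and *Fcgr4* the rarest. *Fcer1g* stood at 1797 CPM in Ctrl, followed by *Fcgr3* at 350.2, *Fcgr1* at 109, *Fcgr2b* at 51.7 and *Fcgr4* at 12.3. No neighbors in this order had overlapping counting intervals, and the order was the same in LP1 and LP4. *Fcgr3* made up 66.9% of the UMIs of the 4 receptors in Ctrl, *Fcgr1* 20.9%, *Fcgr2b* 9.88% and *Fcgr4* 2.35%.

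After 4 h of *Bb*LP, the inhibitory receptor and the high-affinity activating receptor were higher, with the larger ratio at the inhibitory one. *Fcgr2b* was at 51.7 CPM in Ctrl (49.4 to 54.1), 47.6 after 1 h (45.8 to 49.5) and 169 after 4 h (166 to 173). Its level in LP4 stood 3.27-fold above Ctrl, a log2 ratio of 1.71 (1.64 to 1.78). *Fcgr1* was at 109 CPM in Ctrl (106 to 113), 106 after 1 h (104 to 109) and 244 after 4 h (240 to 248). LP4 was 2.23-fold above Ctrl, a log2 ratio of 1.16 (1.11 to 1.21), and the intervals of Ctrl and LP1 overlapped.

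The other members were within 1.5-fold of Ctrl at both times. *Fcgr3* was at 350.2 CPM in Ctrl, 400.1 after 1 h and 453 after 4 h, log2 ratios to Ctrl of 0.19 (0.16 to 0.22) and 0.37 (0.34 to 0.40). It was the only one of the 5 whose level was above Ctrl, beyond counting error, already at 1 h. *Fcgr4* was at 12.3 CPM in Ctrl, 9.70 after 1 h and 15.2 after 4 h, from 440, 509 and 932 UMIs, and its log2 ratio to Ctrl was -0.35 (-0.53 to -0.16) after 1 h and 0.30 (0.13 to 0.47) after 4 h. *Fcer1g* was at 1797 CPM in Ctrl, 1687 after 1 h and 1580 after 4 h, log2 ratios to Ctrl of -0.09 (-0.11 to -0.08) and -0.19 (-0.20 to -0.17), and the direction in LP4 turned under median-of-ratios scaling (0.021).

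**Figure D1:**
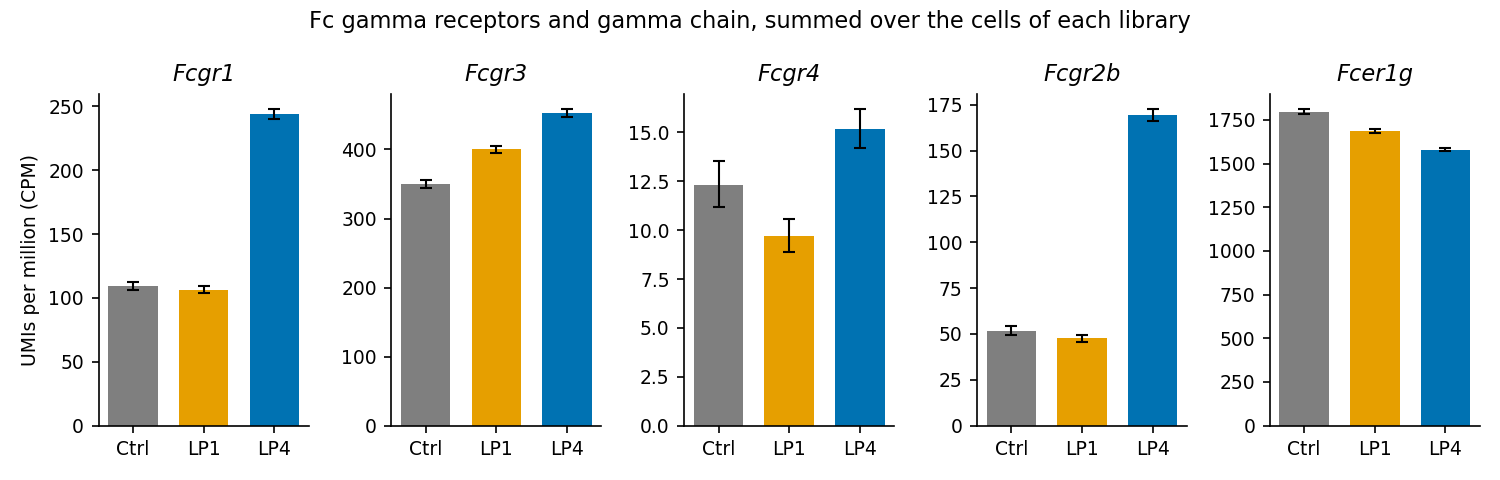
Level of each gene in CPM (UMIs per 1000000, vertical axes from 0, a scale for each gene) in the Ctrl, LP1 and LP4 libraries, with bars for the library sums and whiskers for the 95% Poisson interval of counting error. *Fcgr1* and *Fcgr2b* stood at 244 and 169 CPM in LP4, against 109 and 51.7 in Ctrl, while *Fcer1g* stood at 1580 against 1797, an order that median-of-ratios scaling turned.

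Past a fold of 1.5 from Ctrl, 2 of the 5 members were higher in LP4 and 0 lower, beside 20.2% and 23% of the 8019 genes with at least 10 CPM in 1 of the 2 libraries. In LP1, 0 members were past this fold in either direction, beside 4.12% of 7747 genes higher and 2.74% lower. Between LP4 and LP1, 3 members were higher (*Fcgr1*, *Fcgr2b* and *Fcgr4*) and 0 lower, beside 16.6% and 18.1% of 7956 genes. A share of 2 in 5 is above the background of the 4 h comparison, but with 5 genes it says little about the family as a whole. Of all genes compared, 95.8% had a lower ratio of LP4 to Ctrl than *Fcgr2b*, 91.6% a lower one than *Fcgr1*, 71.9% than *Fcgr3*, 68.6% than *Fcgr4* and 43.9% than *Fcer1g*. The median log2 ratio was 0.37 over the members and -0.07 over all genes. Both comparisons with Ctrl use the same control library.

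The scaling moved these values together. Against CPM, TMM scaling shifts every log2 ratio of LP4 to Ctrl by 0.17 and median-of-ratios scaling by 0.21. Of the genes past 1.5-fold, 46.7% were higher in LP4 by CPM, 61.9% under TMM and 64.9% under median of ratios, and in LP1 60.1%, 75.4% and 76.1%. The counts of members past 1.5-fold from Ctrl were the same under all 3 scalings.

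**Figure D2:**
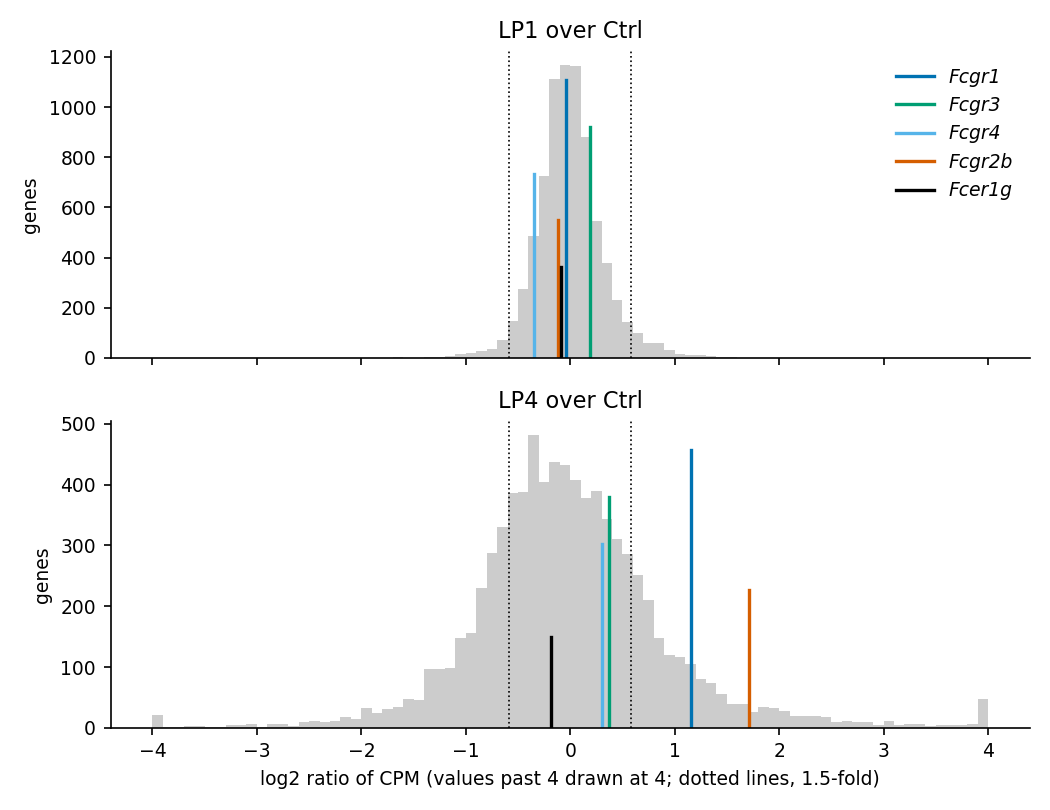
Number of genes (vertical axis) by log2 ratio of CPM (horizontal axis) for LP1 over Ctrl and LP4 over Ctrl, over 7747 and 8019 genes in gray, with the members as colored lines whose height has no meaning. In LP1 all members lie between the dotted lines at 1.5-fold, and in LP4 *Fcgr1* (1.16) and *Fcgr2b* (1.71) lie beyond the upper line.

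The summed balance of activating to inhibitory receptor RNA, led by *Fcgr3*, moved one way at 1 h and the other way at 4 h. Per UMI of *Fcgr2b*, there were 9.12 UMIs of *Fcgr1*, *Fcgr3* and *Fcgr4* together in Ctrl (8.69 to 9.58), 10.8 after 1 h (10.4 to 11.3) and 4.20 after 4 h (4.12 to 4.30). The log2 change from Ctrl was 0.25 (0.16 to 0.34) in LP1 and -1.12 (-1.19 to -1.04) in LP4. The ratio is taken within a library, so it does not depend on the scaling. Each activating receptor had a lower ratio to *Fcgr2b* in LP4 than in Ctrl. For *Fcgr1* it was 2.11 in Ctrl, 2.23 after 1 h and 1.44 after 4 h, and for *Fcgr3* it was 6.77, 8.40 and 2.68. For *Fcgr4* it was 0.238, 0.204 and 0.0897. In LP1, only *Fcgr3* had a higher ratio to *Fcgr2b* beyond counting error, with a log2 change of 0.31 (0.22 to 0.40). The change was 0.080 for *Fcgr1* (-0.025 to 0.185) and -0.23 for *Fcgr4* (-0.43 to -0.02). *Fcgr2b* made up 9.88% of the UMIs of the 4 receptors in Ctrl, 8.44% in LP1 and 19.2% in LP4, while *Fcgr3* made up 66.9%, 71.0% and 51.4%.

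UMIs of the gamma chain outnumbered those of the activating Fc gamma receptors together, by less after 4 h. Per UMI of an activating receptor, there were 3.81 UMIs of *Fcer1g* in Ctrl (3.74 to 3.87), 3.27 after 1 h (3.22 to 3.31) and 2.22 after 4 h (2.20 to 2.25). Other receptors, such as Mincle (*Clec4e*, 421 CPM in Ctrl and 1101 in LP4), also use this chain and are not in the ratio. The ratio is therefore not that of bound chains and does not show an excess of the chain over all receptors that use it.

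Cells were clustered on genes other than the members, and 7 clusters had at least 50 cells in each library. Clusters A to E were macrophage-like and F was cycling-like. Cluster G was named dendritic cell-like from the MHC class II genes *H2-Eb1*, *H2-Ab1* and *H2-Aa* alone, with no other dendritic cell marker among its leading genes. As in A to F, 6 of the 8 macrophage markers were found in at least 50% of the cells of G. In LP4, *Fcgr1*, *Fcgr3* and *Fcgr2b* were above Ctrl in 7 of 7 clusters, and on the CPM scale *Fcer1g* was below in 7 of 7, a direction that for the library sums turned under median-of-ratios scaling. The log2 ratio of LP4 to Ctrl lay between 0.93 and 1.45 for *Fcgr1*, between 0.23 and 0.45 for *Fcgr3*, between 1.21 and 2.56 for *Fcgr2b* and between -0.30 and -0.06 for *Fcer1g*. *Fcgr4* was above Ctrl in 6 clusters and below in cluster B, where the log2 ratio of -0.13 had an interval across 0 (-0.43 to 0.17). Cluster H, led by neutrophil granule genes and described below, held 48 of the 10393 *Fcgr2b* UMIs of LP4, and the *Fcgr2b* ratio was above 1.5-fold in each macrophage-like cluster.

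The clusters differed in *Fcgr2b* without treatment, and its ratio of LP4 to Ctrl was smallest in cluster A, where the Ctrl level was highest. That level is the denominator of the ratio, so the ratio and the Ctrl level are not independent. In Ctrl, *Fcgr2b* lay lowest in cluster B (led by *Mgll*, *Eef1a2* and *Dio2*), at 22.8 CPM in D (led by *Ccnd1* and *Psd3*) and 116 in A (led by *Egr3*, *Ifitm1* and *Apoe*). In LP4, the same clusters stood at 102, 135 and 268 CPM, log2 ratios to Ctrl of 2.22, 2.56 and 1.21. Cluster G went from 72.1 to 175 CPM, with a ratio of 1.28 (0.75 to 1.84) whose interval holds that of A. The activating to *Fcgr2b* ratio in Ctrl lay between 4.99 in cluster A and 19.2 in B, and in LP4 between 3.46 in A and 5.77 in B. It was lower in LP4 in 7 of 7 clusters, from a log2 change of -0.53 in A (-0.65 to -0.40) to -1.89 in D (-2.17 to -1.61), and in cluster G, with 82 Ctrl and 79 LP4 cells, the interval reached 0. In LP1 it was above Ctrl in 7 of 7 clusters, between 0.01 in A and 0.56 in G, and the interval lay above 0 in clusters B and D. With finer clusters (resolution 0.8), the log2 change in LP1 was -0.0049 in the cluster led by *Egr3*. The clusters share their libraries and are not replicates.

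**Figure D3:**
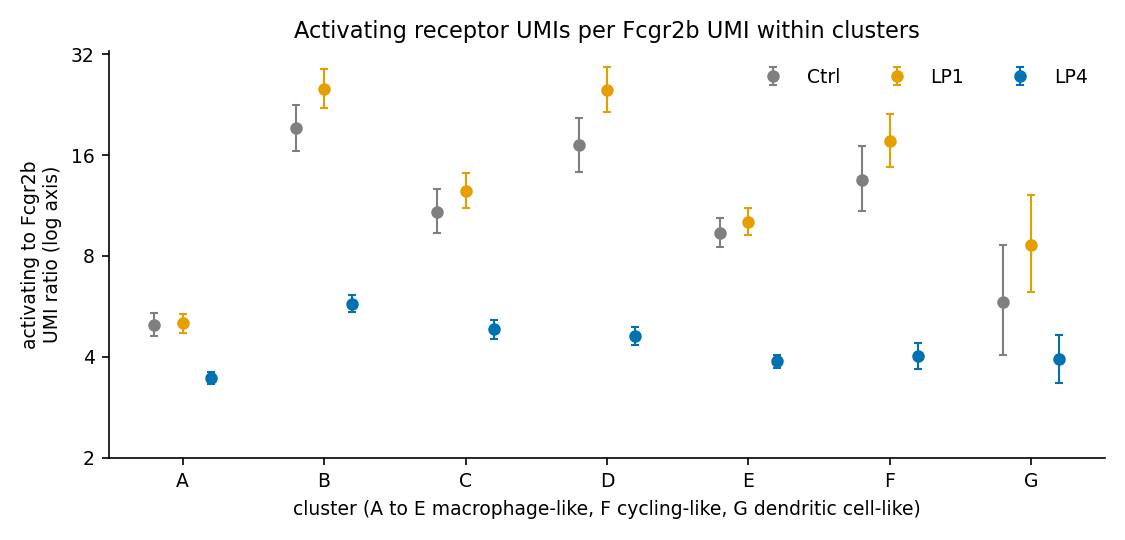
UMIs of *Fcgr1*, *Fcgr3* and *Fcgr4* per UMI of *Fcgr2b* (vertical log axis) in the 7 clusters (horizontal axis) for Ctrl, LP1 and LP4, with whiskers for the 95% interval of counting error. The Ctrl points spread from 4.99 to 19.2 and the LP4 points from 3.46 to 5.77, each LP4 point below the Ctrl point of its cluster.

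*Fcgr2b* also moved with the depth of the cells within a library. In the 1517 Ctrl cells with the fewest UMIs it stood at 86.6 CPM, against 36.1 in the 1517 deepest, and in the 1167 shallowest and deepest LP4 cells at 256 against 133. The activating receptors were lower in the deepest cells too, by a smaller fold. *Fcgr1* stood at 131 against 101 CPM in Ctrl and 262 against 210 in LP4, and *Fcgr3* at 381 against 335 and 556 against 418. The activating to *Fcgr2b* ratio was 6.10 in the shallowest and 12.4 in the deepest Ctrl cells, and 3.26 and 4.83 in those of LP4. LP4 cells were deeper than Ctrl cells, and their ratio was lower in both sets. LP1 cells were deeper than Ctrl cells too, and their ratio was 6.20 in the 1266 shallowest, close to that of Ctrl, and 15.3 in the 1266 deepest. The part of depth in the higher ratio of LP1 was not tested. The part of depth in the difference between clusters was not tested, but clusters A and B differed in median depth as well, with 5868 and 10577 UMIs.

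Shares of cells were compared after thinning each cell to 2000 UMIs, with 122 Ctrl, 13 LP1 and 45 LP4 cells too shallow for this. A UMI of *Fcgr2b* was found in 10.1% of Ctrl (9.36 to 10.9), 9.34% of cells after 1 h (8.55 to 10.2) and 27.5% after 4 h (26.3 to 28.9). For *Fcgr1*, the shares were 18.0%, 17.7% and 36.3%, and for *Fcgr3* 49.2%, 52.5% and 56.3%. *Fcgr4* was seen in 2.17%, 1.76% and 2.81% of cells and *Fcer1g* in 96.1%, 94.4% and 93.6%. Without thinning, 21.5% of Ctrl cells, 27.3% after 1 h and 68.2% after 4 h held a UMI of *Fcgr2b*, and 38.0%, 51.9% and 81.3% one of *Fcgr1*. Most cells with *Fcgr2b* held 1 thinned UMI of it, and 0.286% of Ctrl and 1.82% of LP4 cells held 3 or more.

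Free RNA in the droplets bears on such shares, so the receptors were read in small groups of other cells. In cluster H (84 cells, median depth 4542 UMIs), which stayed unnamed and is led by *Mpo*, *Elane*, *S100a9* and *Ngp*, genes of neutrophil granules and their precursors, *Fcgr1* was found in 0 of 84 cells, which allows a share of cells with a UMI of up to 3.57% (3 counts) or, as the exact upper limit, 4.30%. These limits pool the 3 libraries. By library, the exact upper limit was 10.9% in Ctrl (32 cells), 14.2% in LP1 (24 cells) and 12.3% in LP4 (28 cells). The cells of cluster H held *Fcgr2b*, at 86.1 CPM in Ctrl (39.3 to 163), 112 after 1 h (62.4 to 184) and 200.3 after 4 h (148 to 266), from 9, 15 and 48 UMIs. Cluster I (64 cells) was stromal-like but held macrophage markers as well. *Fcgr2b* was found there in 4 of 24 Ctrl cells (24.9 CPM, median depth 5900.5 UMIs) and 5 of 20 LP4 cells (47.2 CPM, median depth 15487.5 UMIs), and *Fcgr1* in 2 and 4 of them (12.4 and 11.8 CPM). Over all LP4 cells, *Fcgr2b* and *Fcgr1* stood at 169 and 244 CPM, well above these levels of cluster I. The 169 CPM lay within the LP4 interval of *Fcgr2b* in cluster H (148 to 266). The 51.7 CPM of *Fcgr2b* in Ctrl lay within the interval of cluster I (6.77 to 63.7). *Fcgr4* was found there in 0 of 24 Ctrl and 2 of 20 LP4 cells, against 6.36% of all Ctrl and 15.2% of all LP4 cells without thinning, too few cells to tell its shares from this background.

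Activating and inhibitory receptors were read in the same cells. Of the thinned cells, 6.79% in Ctrl, 6.45% in LP1 and 21.0% in LP4 held UMIs of *Fcgr2b* and of an activating receptor, while 37.9%, 35.9% and 20.4% held none of the 4 receptors. *Fcgr2b* alone was seen in 3.33% of Ctrl, 2.89% of cells after 1 h and 6.55% after 4 h. The joint shares were not set against those that the separate shares of the genes would give. The shares with none depend on depth, as *Fcgr3* was found in 77.5% of Ctrl and 94.4% of LP4 cells without thinning. In LP4, *Fcgr2b* was found in 30.2% of cells with *Fcgr3* and in 24.2% of those without, with intervals that did not overlap, and in Ctrl in 12.2% and 8.14%. With and without *Fcgr1* the shares were 26.8% and 28.0% in LP4 and 8.79% and 10.4% in Ctrl, with overlapping intervals. LP4 cells with *Fcgr3* were shallower before thinning, with a median of 11518 UMIs against 12288 in those without. Clusters also differed in both *Fcgr3* and *Fcgr2b*. The part of depth and cluster in these shares was not tested.

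*Fcgr1*, *Fcgr4* and, by less, *Fcer1g* were higher in cells with high interferon gene expression in every library, and *Fcgr2b* was not. Cells were ordered by the summed share of UMIs of 9 interferon-stimulated genes, among them *Ifit1*, *Rsad2* and *Isg15*, and the 1517 Ctrl, 1266 LP1 and 1167 LP4 cells with the highest score were set beside the 1167 LP4 cells with the lowest one or, in Ctrl and LP1, beside the 2570 and 1794 cells with no UMI of these genes. *Fcgr1* stood at 67.5 CPM in low and 200.7 in high Ctrl cells, at 62.1 and 193 in LP1 and at 185 and 350.3 in LP4. *Fcgr4* stood at 10.8 and 17.2 CPM in Ctrl, 7.16 and 13.4 in LP1, and 9.19 and 20.5 in LP4. *Fcer1g* stood at 1760 and 1898 CPM in Ctrl, 1627 and 1793 in LP1, and 1498 and 1646 in LP4. *Fcgr3* stood at 345 and 347 CPM in Ctrl, with overlapping intervals, at 399 and 422 in LP1 and at 417 and 480 in LP4. *Fcgr2b* stood at 51.8 and 54.8 CPM in Ctrl, at 50.6 and 53.4 in LP1 and at 201 and 165 in LP4, lower in the high cells of LP4. High Ctrl cells reached the *Fcgr1* level of low LP4 cells, while *Fcgr2b* in low LP4 cells was above every set of Ctrl and LP1 cells.

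The order of *Fcgr1*, *Fcgr4* and *Fcgr2b* held within the clusters of LP4. Between the highest and lowest cells of each cluster by the same score (from 19 a set in G to 295 in A), *Fcgr1* and *Fcgr4* were higher in 7 of 7 clusters and *Fcgr2b* lower in 7 of 7, with log2 ratios between 0.59 and 3.37, between 0.60 and 3.11 and between -0.71 and -0.09. The intervals reached 0 for *Fcgr4* in cluster B and for *Fcgr2b* in F and G. *Fcgr3* was higher in 4 clusters and lower in 3. *Fcer1g* was higher in 6 and lower in 1, with an interval above 0 only in cluster A. The activating to *Fcgr2b* ratio was 3.04 in low and 5.17 in high LP4 cells, both below the 8.18 and 10.3 of Ctrl. The score is a range over cells and not a cell type.

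**Figure D4:**
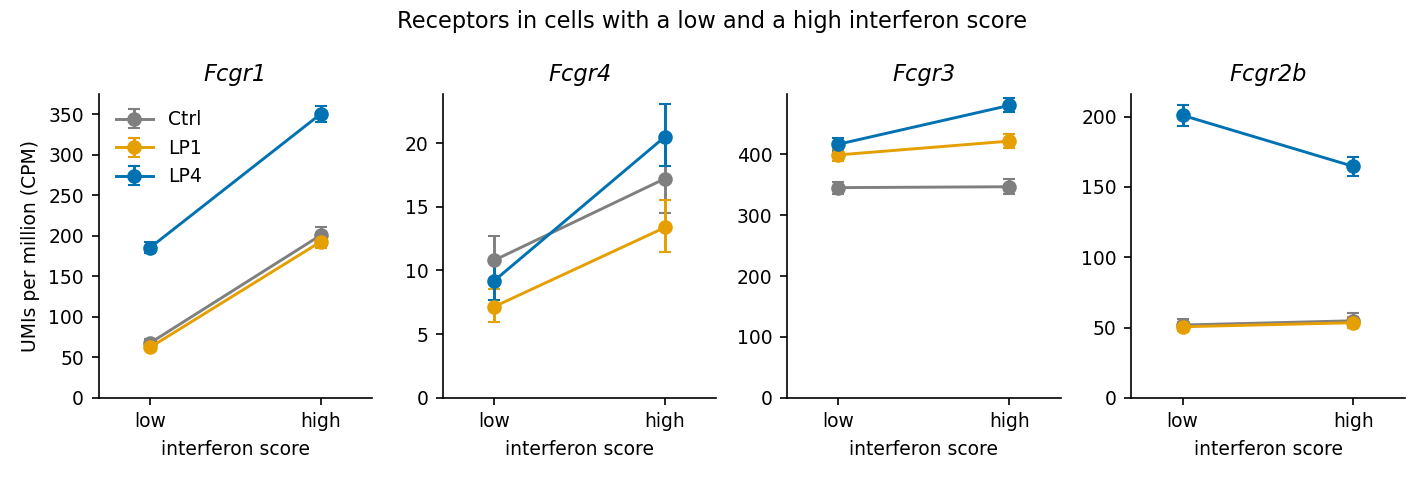
Level of each receptor in CPM (vertical axes from 0) in cells with a low and a high interferon score (horizontal axes) of Ctrl, LP1 and LP4, with whiskers for the 95% interval of counting error. Low and high are ranks within each library, and low LP4 cells have a higher median score than high Ctrl cells. *Fcgr1* rises from low to high in each library (67.5 to 200.7 CPM in Ctrl, 185 to 350.3 in LP4), and *Fcgr2b* in LP4 goes from 201 to 165 CPM.

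Across 21 points (7 clusters in 3 libraries), the genes most like *Fcgr2b* in log2(CPM + 1) were *Ifi207* (Pearson's r = 0.976), *Ms4a4a* (0.975) and *Csf3r* (0.963), of 4709 genes with at least 50 CPM in a point. For *Fcgr1* they were *AI504432* (0.958), *Sdc4* (0.948) and *Foxp1* (0.940), and for *Fcgr3* *Mgst1* (0.868), *Cybb* (0.861) and *Itm2b* (0.857). Those of *Fcer1g* were *AY036118* (0.859), *Guca1a* (0.850) and *Syf2* (0.840), and *Fcgr4* did not reach 50 CPM in any point. The points share libraries and depth, so the values describe likeness only.

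Genes of the signaling that follows the activating receptors were past 1.5-fold in shares near those over all genes. Of 31 with at least 10 CPM, 6 were above Ctrl by this fold in LP4 and 9 below, beside 20.2% and 23% of all genes, with a median log2 ratio of -0.16 beside -0.07 over all genes. The kinase gene *Src* (35.8 to 89.5 CPM) was higher, as were *Lcp2*, the adaptor SLP-76 (log2 ratio 1.14), *Pik3ap1*, the adaptor BCAP (0.68), and *Nck1*, an adaptor to actin (0.68). Lower were *Dock2*, an activator of Rac (710.1 to 181 CPM, -1.97), the exchange factors *Vav3* (589 to 181 CPM, -1.70) and *Vav2* (-1.52), and the PI3-kinase subunits *Pik3cb* (-1.84) and *Pik3r1* (-1.56). *Syk*, named after its values were seen because the gamma chain signals through it, stood at 551 CPM in Ctrl, 526 after 1 h and 325 after 4 h (log2 ratio of LP4 to Ctrl -0.76).

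Most of the measured genes of inhibitory signaling were lower, while *Fcgr2b* itself was higher. Of 11, 0 were at least 1.5-fold above Ctrl in LP4 and 7 below, beside 20.2% and 23% of all genes, with a median log2 ratio of -0.67. Under TMM and median-of-ratios scaling 5 were below, beside 16.3% and 15.0% of all genes. *Inpp5d*, the phosphatase SHIP1 that the ITIM of the receptor recruits, stood at 138 CPM in Ctrl, 94.2 after 1 h and 40.5 after 4 h, a log2 ratio of LP4 to Ctrl of -1.77 (-1.84 to -1.70). *Ptpn6*, the phosphatase SHP-1, went from 106 to 48.0 CPM (-1.14), and *Ptpn22* (-1.09), *Csk*, the kinase that restrains Src kinases (-1.01), and the adaptor *Dok2* (-0.99) were lower too. Of 6 other inhibitory receptors, such as *Pirb*, *Lilrb4a* and *Sirpa*, 0 were past 1.5-fold in either direction (median -0.20).

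Of the receptors that share the gamma chain, 5 were measured. In LP4, 1 of them was at least 1.5-fold above Ctrl and 0 below, beside 20.2% and 23% of all genes. That share is near the background. *Clec4e*, which encodes Mincle, was 1.39 higher on the log2 scale in LP4 (421 to 1101 CPM), while the other 4 were within 1.5-fold. *Clec4d*, encoding its partner MCL, stood at 714 CPM in Ctrl and 959 in LP4 (0.42), past 1.5-fold under TMM and median-of-ratios scaling. *Tyrobp*, the adaptor DAP12 with an ITAM like that of the gamma chain, was at 3478 CPM in Ctrl, 2299 after 1 h and 1804 after 4 h, log2 ratios to Ctrl of -0.60 and -0.95, and *Hcst*, the adaptor DAP10, was at 62.9, 32.6 and 37.9 CPM. These 2 adaptors were the only genes of the 8 lists with at least 10 CPM past 1.5-fold in LP1, beside 4.12% of all genes higher and 2.74% lower. In LP4 these 2 were below Ctrl by this fold as well, beside 23% of all genes. Under TMM and median-of-ratios scaling, *Tyrobp* in LP1 and *Hcst* in LP4 were no longer past 1.5-fold from Ctrl. Among other receptors of immunoglobulins, *Trim21*, the cytosolic one, went from 3.87 to 31.8 CPM (3.04), *Fcgrt*, the neonatal receptor, from 94.8 to 52.6 (-0.85), and *Fcrls* was within 1.5-fold. Of these 3, 1 was thus higher and 1 lower, beside 20.2% and 23% of all genes, shares at which 3 genes say little.

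Known regulators of these receptor genes were 18 with at least 10 CPM, of which 4 were above and 4 below Ctrl in LP4, close to the 20.2% and 23% over all genes. *Il4ra*, the IL-4 receptor, went from 31.6 to 647 CPM (4.36), *Stat3* from 69.5 to 252 (1.86) and *Ifngr2* from 91.7 to 163 (0.83). *Tgfb1* went from 481 to 251 CPM (-0.94), and *Tgfbr1* (-0.82), *Ifngr1* (-0.62) and *Tgfbr2* (-0.60) were lower. *Spi1*, the gene of PU.1, named after its values were seen because the promoters were searched for its sites, was at 561 CPM in Ctrl, 512 after 1 h and 506 after 4 h. In LP1, 0 of the 18 were past 1.5-fold, beside 4.12% of all genes higher and 2.74% lower, shares at which 18 genes say little. Under TMM and median-of-ratios scaling 7 were above and 2 below in LP4. Over all genes, 26.5% were above and 16.3% below under TMM, and 27.8% and 15.0% under median of ratios.

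**Figure D5:**
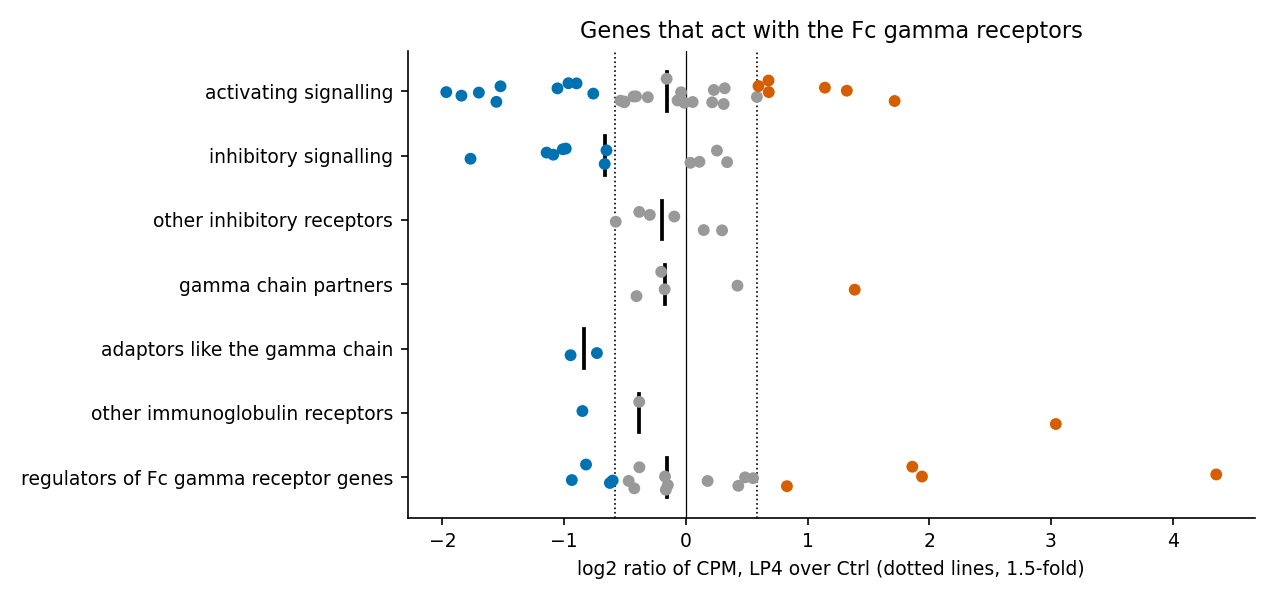
Log2 ratio of CPM of LP4 over Ctrl (horizontal axis) for the genes with at least 10 CPM in Ctrl or LP4 of 7 lists (rows), with orange points at least 1.5-fold higher, blue points at least 1.5-fold lower, and black bars for medians. The inhibitory signaling genes have 7 of 11 points below the lower dotted line and 0 above the upper one. Under TMM scaling 5 of 11 are below, beside 16.3% of all genes.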

How the data were processed

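Each of Ctrl, LP1 and LP4 gave 1 library. The authors aligned the reads to mm10 with Cell Ranger (version 7.1.0 in the submitters' processing notes), and the deposited values are raw UMI counts. Following the study's limits, a barcode needed over 500 UMIs, over 500 genes and less than 5% of UMIs from mitochondrial genes (15806 of 16281, more than the study states). The scrublet caller marked 2 doublets, so it had not worked, and none were removed. UMIs were summed per library and scaled to CPM. Intervals at 95% were exact Poisson for CPM, exact conditional binomial for log2 ratios, exact binomial for shares and a normal approximation on the log odds ratio for changes of a ratio. No test between libraries was made. A gene with under 3 UMIs was set to a floor of 3 in counts over all genes and lists.

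Clusters (resolution 0.5) came from 2000 variable genes that differed by less than 1.5 times between libraries, without the members, centered within library, with 30 principal components and 20 neighbors, and were named from marker lists. From each list, at most the 5 genes with the largest ratio of LP4 to Ctrl past 1.5-fold in each direction are named, and for each member the 3 genes with the highest correlation. Some genes that this rule names are not reported here. The members and lists were chosen with earlier results of these data known. The ratio and interval calculations were tested on simulated data. Python 3.11.15, scipy 1.17.1, scanpy 1.11.5 and leidenalg 0.10.2 were used, and TMM factors came from edgeR 4.0.16 (R 4.3.3). Alternatives were other cell filters, scalings, thinning depths, resolutions and minimum counts.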

Additional observations from a re-analysis of the deposited data

Results flagged for a closer look

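For 2 of the 5 genes and for the balance of the receptors, LP1 and LP4 lay on opposite sides of Ctrl, with counting intervals that on the CPM scale leave out 0 at both times. With 1 library per time, the difference between the times was not tested against the spread between cultures. The log2 ratio of *Fcgr4* to Ctrl was -0.35 in LP1 and 0.30 in LP4, and that of *Fcgr2b* -0.12 in LP1 and 1.71 in LP4. For *Fcgr2b* the LP1 value was -0.048 under TMM and -0.044 under median-of-ratios scaling, and its direction at 1 h is then within counting error. The log2 change of the activating to *Fcgr2b* ratio was 0.25 in LP1 and -1.12 in LP4. Of the activating receptors, only *Fcgr3* was above Ctrl in its ratio to *Fcgr2b* at 1 h beyond counting error.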

How the results depend on the processing

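No paired analysis was possible because each condition is 1 library. The counts of members past 1.5-fold from Ctrl were the same under each of 11 alternatives, and the count of clusters with a higher activating to *Fcgr2b* ratio in LP4 than in Ctrl was 0 at both other resolutions. At resolution 0.8, some clusters were split by library. The cluster led by *Egr3* held 26.9% of Ctrl and 3.73% of LP4 cells, and that led by *Gbp4* 1.33% and 22.4%. Like cells are therefore not compared in these clusters. The log2 change of that ratio from Ctrl to LP4 was -1.03 as a mean of cell shares, against -1.12 from summed UMIs. The log2 ratio of *Fcgr1* in LP1 to Ctrl, -0.040 by CPM, turned to 0.032 under TMM and 0.036 under median of ratios, and that of *Fcer1g* in LP4 to Ctrl, -0.19 by CPM, to 0.021 under median of ratios. All 45 shares of cells moved with the depth. Of 128 counts over the pathway lists, 115 stayed within 1.5 times and 13 did not. Many of the 115 were counts of 0 that stayed 0, most of them in LP1, so this share says little about the other counts. With 1 library per condition, no value here could be set against the variation of separate cultures, and among the members *Fcgr4* rests on the fewest UMIs.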

Other observations

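Barcodes at or over 5% mitochondrial UMIs, some of which also failed the other limits, were 22 in Ctrl, 51 in LP1 and 339 in LP4. In the LP4 ones, *Fcgr2b* stood at 144 CPM, *Fcgr1* at 173, *Fcgr3* at 373 and *Fcer1g* at 1394, with the receptors in the same order as in the kept cells.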
